A study of Bos taurus with 12 samples.

Results

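The genes described here encode the proteins of the cytosolic ribosome. They were chosen by symbol: RPL or RPS followed by a number, RPSA, and the stalk genes RPLP0, RPLP1 and RPLP2, with the RPS6 kinases left out. The rule found 68 of the 9155 genes that had a probe set naming 1 gene. Of these, 37 encode large subunit proteins, 23 small subunit proteins and 2 stalk proteins (RPLP0 and RPLP2). The remaining 6 are paralogs or copies of a standard gene: RPL3L, RPL26L1, RPL7L1, RPS27L, RPS4Y1 and RPL15P, which RefSeq lists as a pseudogene. The other 62 are called canonical below. A further 16 protein-coding genes that fit the rule, among them RPL15, RPLP1 and RPS4X, were not analysed here.

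Total RNA from fat of steers was measured on Affymetrix bovine arrays. The steers were Japanese Black (JB) or Holstein (HS), and all 4 groups had received an energy-rich diet, so no group shows the tissue without it. Each breed gave 3 samples of intramuscular fat (IMF, numbered 1 to 3), the fat between the fibres of a muscle, and 3 of subcutaneous fat (SCF, numbered 4 to 6). The labels give neither ages nor whether samples came from separate animals, so p-values measure only the spread between these samples.

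The cytosolic ribosome joins a small subunit, which reads the messenger RNA, to a large subunit, which forms the peptide bond. Its proteins are needed in near equal amounts, and their messenger RNAs begin with a pyrimidine tract (the TOP motif) through which growth signalling controls their translation. Ribosomal protein genes are expressed in every cell type, and several serve as reference genes in studies of fat and muscle. A few have paralogs used by particular tissues, of which RPL3L, the form of RPL3 found in skeletal muscle and heart, is the best known.

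The depots differed in more than their fat cells. Skeletal muscle fibre genes had a mean log2 signal between 12.1 and 13.1 in IMF and between 5.77 and 8.76 in SCF, and 13 of 15 were higher in IMF, with a median difference of 6.61. TNNT1 was the only one of the 15 listed at 0, in 1 SCF sample. Adipocyte genes averaged between 9.99 and 12.1 in IMF and between 11.9 and 12.5 in SCF. All 10 had a lower mean in IMF, with a median difference of -0.998. Of these, AQP7 alone had a limma adjusted p under 0.05 (0.0416). The fat cell gene FABP4 was bright in every sample, at 11591 to 15285 in IMF and 15400 to 17308 in SCF. All 10 macrophage genes were lower in IMF, with a median difference of -2.17, and 7 of 9 smooth muscle genes were higher, with a median of 2.91. In bulk tissue, fewer cells of a type and less RNA per cell cannot be told apart. The sample HS IMF 3 stood apart from the rest: its array had a median signal of 58.8, against 77.5 to 88.6 on the other 11 arrays.

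Each gene is given through its brightest probe set, and by that measure RPL3L was the 1 gene of the 68 that passed the test between the depots. Its signal was 342, 177 and 531 in JB IMF and 602, 51.2 and 371 in HS IMF. It was 16.4, 1.92 and 15.2 in JB SCF and 14.8, 11.5 and 6.90 in HS SCF. Every IMF sample lay above every SCF sample, and the lowest IMF sample was HS IMF 2. After quantile normalization on the log2(signal + 16) scale, the difference between IMF and SCF was 3.56 ± 0.50 (SE, 6 samples a depot), with a 95% interval of 2.46 to 4.65 and a limma adjusted p of 0.000888. On that scale this is an 11.8-fold difference, and with a pseudocount of 1 the log2 difference was 4.89, since the SCF signals are near or below 16. Probe sets with the dimmest 30% of means over all samples were left out before testing. RPL3L was kept through its IMF values, and it also passed in a fit without that filter.

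**Figure D1:**
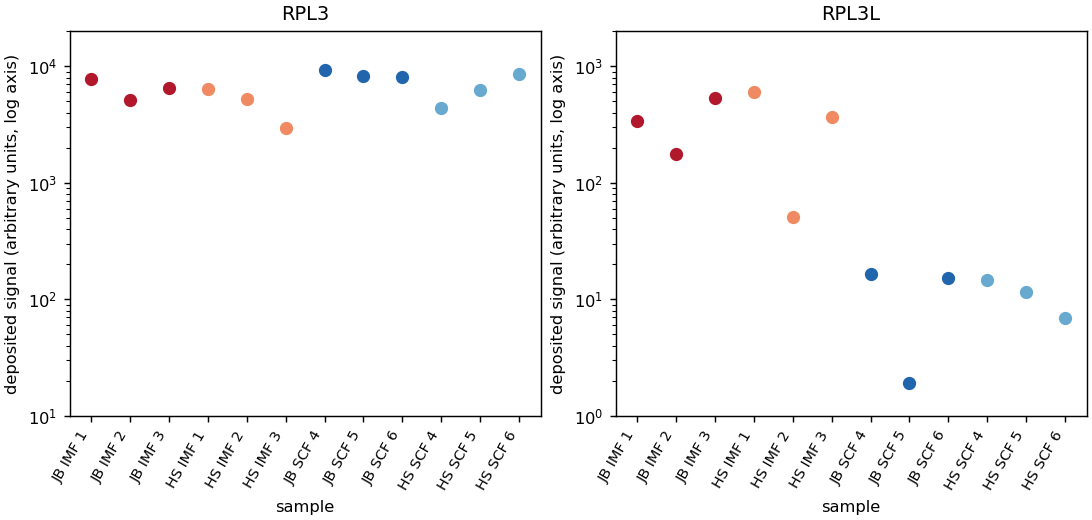
Deposited signal of RPL3 and of its muscle paralog RPL3L in each of the 12 samples, on log axes that differ between the panels; each point is 1 sample and the groups are breed and depot. RPL3L lies between 51.2 and 602 in IMF and between 1.92 and 16.4 in SCF, while the RPL3 samples of the depots overlap.

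Within each breed RPL3L was also higher in IMF. The difference was 3.61 ± 0.71 in JB (limma adjusted p 0.0158) and 3.51 ± 0.71 in HS (adjusted p 0.0218). The breeds themselves differed by 0.04 ± 0.71 in IMF and by -0.05 ± 0.71 in SCF, intervals too wide to exclude differences of over 2-fold. The calls within a breed rest on few samples. In JB the adjusted p rose to 0.0735 without IMF 1, 0.0981 without IMF 3, 0.0828 without SCF 5 and 0.0546 without SCF 6. In HS it rose to 0.0804 without IMF 3, 0.0600 without SCF 5 and 0.0979 without SCF 6, to 0.0699 with array weights and to 0.124 in a fit on the HS groups alone. Over both breeds the call held without each sample in turn. The breed by depot interaction of RPL3L was 0.10 ± 1.01, with an interval of -2.09 to 2.28.

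Muscle fibre genes were set beside RPL3L in each IMF sample. The one with the lowest RPL3L signal, HS IMF 2, also had the lowest muscle fibre mean (12.06), and the next lowest, JB IMF 2, had the next lowest mean (12.55). The other 4 IMF samples had nearly equal muscle fibre means, and the order of RPL3L in them depended on the scale. On the normalized log2 scale of those means, RPL3L was 8.36 in JB IMF 1 (mean 13.14) and 9.40 in HS IMF 3 (13.12). It was 8.93 in JB IMF 3 (13.08) and 9.24 in HS IMF 1 (13.03). The deposited signals of these samples were 342, 371, 531 and 602, in the same order. The part of muscle RNA in the depot difference of RPL3L was not tested. Among SCF samples the highest muscle fibre means were in HS SCF 5 (8.76) and JB SCF 6 (8.47), whose RPL3L signals of 11.5 and 15.2 lay within the range of the other SCF samples.

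RPL3, the standard form, which binds near the peptidyl transferase centre of the large subunit, did not pass the test. Its signal was 7765, 5183 and 6563 in JB IMF, 9266, 8325 and 8150 in JB SCF, 6330, 5271 and 2976 in HS IMF, and 4358, 6281 and 8523 in HS SCF. The JB depots did not overlap, with SCF above IMF, but the HS depots did. After normalization the JB depots did not overlap for 19 of the 68 genes (27.9%), beside 30.3% of all probe sets. In the deposited values this held for 26 (38.2%), beside 31.1%. The depot difference of RPL3 was -0.28 ± 0.19 (limma adjusted p 0.378). A second RPL3 probe set gave 0.54 ± 0.19 (adjusted p 0.098), so the array does not fix the direction for RPL3.

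The other paralogs did not pass the depot test. RPS27L, a paralog of RPS27 induced by p53, had signals of 2969 to 4189 in JB IMF, 2739 to 3811 in JB SCF, 1698 to 3026 in HS IMF and 2388 to 2666 in HS SCF. Its depot difference was 0.10 ± 0.17, and that of RPS27 was -0.04 ± 0.14. RPL26L1, nearly identical to RPL26, ranged from 941 to 1030 in JB IMF, 1106 to 1243 in JB SCF, 363 to 1209 in HS IMF and 855 to 1312 in HS SCF. The 3 JB SCF samples lay above the 3 JB IMF samples, and the HS depots overlapped. RPL26L1 had a depot difference of -0.28 ± 0.20 and RPL26 one of -0.07 ± 0.15. RPL7L1, a relative of RPL7 that acts in the nucleolus, had signals of 647, 581 and 512 in JB IMF and 1064, 754 and 670 in JB SCF. In HS it had 516, 478 and 255 in IMF and 506, 747 and 596 in SCF. Its depot difference was -0.35 ± 0.16 (limma adjusted p 0.191), beside -0.06 ± 0.16 for RPL7.

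The copies RPS4Y1 and RPL15P carry names whose standard genes, RPS4X and RPL15, were not analysed here. RPS4Y1 ranged from 7173 to 12898 over the 12 samples and differed by 0.06 ± 0.14 between the depots. RPL15P ranged from 4027 to 8668 and differed by -0.09 ± 0.18. Ribosomal protein genes have many processed copies in mammalian genomes, and how much of these signals comes from near-identical transcripts is uncertain.

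Between the depots, 1 of the 68 genes (RPL3L) passed the adjusted threshold of 0.05, beside 11.0% of all probe sets tested. In the 2 directions, 1 gene was higher in IMF (4.66% of all probe sets) and 0 were lower (6.33%). At an unadjusted p under 0.05 the count was 3 of 68, or 4.41%, beside 27.2% of all probe sets. The 6 IMF samples did not overlap the 6 SCF samples for 2 of the 68, RPL3L and RPL19, or 2.94%, beside 6.24% of all probe sets. The differences of the 67 genes other than RPL3L lay between -0.40 and 0.36.

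The depot differences were measured within narrow intervals. The 95% interval of the depot difference lay within 1 log2 unit of 0, that is within 2-fold either way, for 67 of the 68 genes (98.5%) and for 63.6% of all probe sets. The median SE was 0.158 over the 68 genes and 0.233 over all probe sets tested. Differences of less than 2-fold can still lie inside these intervals. Most of the 68 genes were also far brighter than the median probe set, and intervals were not compared at like brightness. Higher in IMF were 19 of 68 genes (27.9%), beside 44.5% of all probe sets, and 49 were lower. The median difference was -0.08, and that of all probe sets tested was -0.06. Of the small subunit genes 20 of 23 were lower in IMF, with a median of -0.10, and of the large subunit genes 25 of 37, with a median of -0.07.

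**Figure D2:**
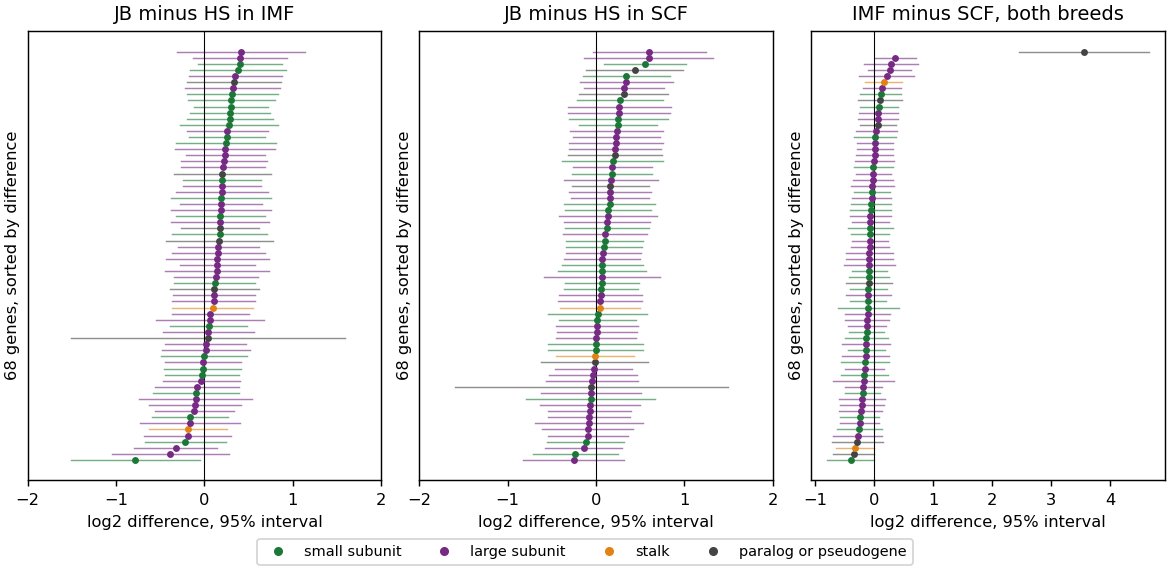
Differences of the 68 genes between breeds in IMF (left), between breeds in SCF (middle) and between depots over both breeds (right), on the log2(signal + 16) scale, each with its 95% interval and coloured by role; genes are sorted within each panel, and the right panel has a wider axis. RPL3L stands alone at 3.56 in the depot panel, while the other 67 lie between -0.40 and 0.36.

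Besides RPL3L, the genes nearest to a depot difference belonged to the small subunit, the stalk and the large subunit. RPSA, a small subunit protein also known as the laminin receptor precursor, had signals of 7590, 7297 and 7211 in JB IMF and 10445, 11731 and 8765 in JB SCF. In HS it had 6815, 4887 and 4568 in IMF and 4831, 7463 and 11127 in SCF. The JB depots did not overlap, while HS SCF 4 lay within the HS IMF range. The depot difference of RPSA was -0.40 ± 0.18 (limma adjusted p 0.185).

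The stalk of the large subunit draws the GTPases of elongation to the ribosome. RPLP2 had signals of 10230, 10709 and 8822 in JB IMF and 12931, 12511 and 11235 in JB SCF. In HS it had 8810, 6759 and 7743 in IMF and 8088, 11444 and 12492 in SCF. SCF was above IMF in JB in these signals, but not in the normalized values, and the HS depots overlapped through HS SCF 4. The difference was -0.33 ± 0.15 (limma adjusted p 0.176). RPLP0, to which the other stalk proteins bind, had signals of 8122 to 9546 in JB IMF, 8380 to 9474 in JB SCF, 6671 to 11790 in HS IMF and 6456 to 9404 in HS SCF. Its depots overlapped in both breeds, and its difference was 0.16 ± 0.14.

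RPL19, a large subunit protein and a common reference gene, leaned to IMF. Its signal was 7921, 7306 and 7938 in JB IMF and 7587, 7538 and 7133 in JB SCF, where the depots overlapped. In HS it was 7051, 5787 and 11058 in IMF and 4728, 5735 and 6068 in SCF, with HS IMF 3 far above the rest. After quantile normalization the 6 IMF samples lay above the 6 SCF samples, which the deposited signals did not. The depot difference of RPL19 was 0.36 ± 0.16 (limma adjusted p 0.170), and within HS it was 0.57 ± 0.23 (adjusted p 0.179).

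The other reference genes had smaller depot differences. They were -0.13 ± 0.14 for RPS18, -0.19 ± 0.14 for RPL13A, -0.08 ± 0.18 for RPL32 and -0.06 ± 0.17 for RPS15. RPS6, the substrate of S6 kinase, differed by -0.25 ± 0.15. RPL5 and RPL11, which together can bind MDM2 and so link ribosome assembly to p53, differed by -0.10 ± 0.17 and -0.25 ± 0.15.

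Within each breed the depot comparison gave the same single gene. In JB 1 of 68 passed (RPL3L), beside 3.07% of all probe sets, and in HS 1 of 68 (RPL3L), beside 3.32%. The median depot difference of the 68 genes was -0.04 in JB and -0.11 in HS, beside -0.06 and -0.09 over all probe sets. The next genes by p in JB were RPL7L1 (-0.45 ± 0.23) and RPSA (-0.43 ± 0.26), and in HS RPL19, RPL7A (0.64 ± 0.29) and RPS6 (-0.39 ± 0.22). None of these 5 passed the adjusted threshold. The HS depots did not overlap for 7 of the 68 genes after normalization (10.3%), beside 20.5% of all probe sets. In the deposited values this held for 3 (4.41%), beside 20.4%. Without HS IMF 3 the median in HS was 0.02.

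Breed was first compared in IMF, where marbling sets Japanese Black cattle apart from Holstein. Of the 68 genes 0 passed the adjusted threshold, beside 0.0238% of all probe sets, and 1 (RPS19) had an unadjusted p under 0.05 in limma, or 1.47%, beside 10.2%. JB and HS samples did not overlap for 10 genes, or 14.7%, with JB higher for 9 and HS for 1, beside 13.8% of all probe sets. On this scale the share is near that of the array as a whole. The 95% interval lay within 2-fold either way for 64 of 68 genes (94.1%) and for 42.0% of all probe sets. Differences ran from -0.78 to 0.42, and 50 of 68 (73.5%) were higher in JB, beside 57.8% of all probe sets, with a median of 0.15 beside 0.10 over all probe sets.

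The genes nearest to a breed difference in IMF were RPS6, RPL5 and RPS3 on the JB side. RPS6 had signals of 12532, 11261 and 12649 in JB IMF and 9594, 7602 and 6372 in HS IMF. The groups did not overlap, and the difference was 0.40 ± 0.22 (limma adjusted p 0.513). RPL5 had 12569, 11214 and 12116 in JB IMF and 10106, 7969 and 5464 in HS IMF, again without overlap, with a difference of 0.40 ± 0.24 (adjusted p 0.547). RPS3, a protein of the messenger entry site that also takes part in DNA repair, had 11274, 9990 and 11655 in JB IMF and 8543, 7159 and 6738 in HS IMF, with a difference of 0.30 ± 0.19 (adjusted p 0.565). In each of the 3 genes the lowest signal was in HS IMF 3. Without that sample the differences were 0.23 for RPS6, 0.14 for RPL5 and 0.20 for RPS3.

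On the HS side stood RPS19, RPL10A and RPL36A. RPS19, whose mutation is a cause of Diamond-Blackfan anaemia in humans, was measured by a dim probe set with signals of 115, 151 and 131 in JB IMF and 141, 179 and 239 in HS IMF. The groups overlapped, and the difference was -0.78 ± 0.34 (limma adjusted p 0.485). RPL10A had 6843, 6286 and 7455 in JB IMF and 7107, 6017 and 8559 in HS IMF. These deposited signals overlap, while the normalized values did not, with a difference of -0.33 ± 0.22. RPL36A had 5432, 5232 and 6296 in JB IMF and 5592, 4829 and 8939 in HS IMF, with a difference of -0.38 ± 0.30. In all 3 the highest signal was in HS IMF 3, the sample that was lowest for RPS6, RPL5 and RPS3. Without it the differences were -0.35 for RPS19, -0.24 for RPL10A and -0.16 for RPL36A.

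In SCF, 0 of the 68 genes passed the adjusted threshold between breeds, beside 0.00595% of all probe sets. RPS9 alone had an unadjusted p under 0.05 in limma (1.47%), beside 3.56% of all probe sets. JB and HS samples did not overlap for 11 genes, or 16.2%, all with JB higher, beside 12% of all probe sets. The interval lay within 2-fold either way for 64 of 68 genes (94.1%), beside 54.0%. Differences ran from -0.26 to 0.60, and 47 of 68 (69.1%) were higher in JB, beside 50.4% of all probe sets, with a median of 0.08 beside 0.00286 over all probe sets.

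RPS9, a small subunit protein of the messenger entry site and a reference gene, had signals of 6016, 6823 and 5986 in JB SCF and 3048, 4042 and 4843 in HS SCF. The breeds did not overlap, and the difference was 0.55 ± 0.21 (limma adjusted p 1.00). RPL7A, a large subunit protein, had 7137, 7662 and 5936 in JB SCF and 2541, 4535 and 6347 in HS SCF. The deposited signals overlapped through HS SCF 6, and the normalized values did not, with a difference of 0.60 ± 0.29. RPL37 was dim in all samples (27.8 to 118) and had a difference of 0.60 ± 0.33, which ran from 0.34 to 0.84 without each sample in turn. For RPS9 and RPL7A the lowest sample was HS SCF 4, without which the differences were 0.44 and 0.29.

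The genes furthest to the HS side in SCF differed by less. RPL31 had signals of 8173, 7668 and 8960 in JB SCF and 8786, 8483 and 8077 in HS SCF, with a difference of -0.26 ± 0.26. RPS29 differed by -0.24 ± 0.22 and RPL37A by -0.14 ± 0.20, and in both the breeds overlapped. Without HS SCF 4 the differences of RPL31 and RPS29 were -0.13 and -0.10.

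The share of genes on the JB side moved with the scaling of the arrays. In IMF, 50 of 68 were higher in JB after quantile normalization, 49 when arrays were centred on their medians instead and 65 in the values as deposited, beside 57.8%, 62.7% and 74.2% of all probe sets. The medians were 0.15, 0.19 and 0.39, and those of all probe sets 0.10, 0.17 and 0.38. In SCF the counts were 47, 61 and 65, beside 50.4%, 53.9% and 59.4% of all probe sets, with medians of 0.08, 0.21 and 0.25 beside 0.00286, 0.03 and 0.08 over all probe sets. For depot, 19, 20 and 9 of 68 were higher in IMF, beside 44.5%, 42.2% and 33.0%. In the deposited values JB and HS did not overlap for 22 of 68 genes in IMF (32.4%), all with JB higher, beside 16.8% of all probe sets. In SCF this held for 17 genes (25%), again all with JB higher, beside 12.1%. In IMF, 7 of 68 (10.3%) then had an unadjusted p under 0.05 in limma, beside 13.8%. Under each of the 3 scalings 0 of the 68 genes passed between breeds in either depot.

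The breed by depot interaction, the difference in IMF less the one in SCF, passed the threshold for 0 of 68 genes, beside 0% of all probe sets, and 0 of the 68 had an unadjusted p under 0.05 in limma. The interaction ran from -0.72 (RPS19) to 0.39 (RPS28), with a median of 0.05, as over all probe sets. RPL7A had -0.70 ± 0.42 and RPS9 -0.44 ± 0.30. Without each sample in turn the interaction ran from -1.06 to -0.29 for RPS19, -0.92 to -0.39 for RPL7A and 0.19 to 0.56 for RPS28. The interval of the interaction lay within 2-fold either way for 52 of the 68 genes. For this count and that of unadjusted p the share over all probe sets was not computed, so neither can be set against the array. The median SE of the interaction was 0.315 over the 68 genes and 0.466 over all probe sets tested.

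**Figure D3:**
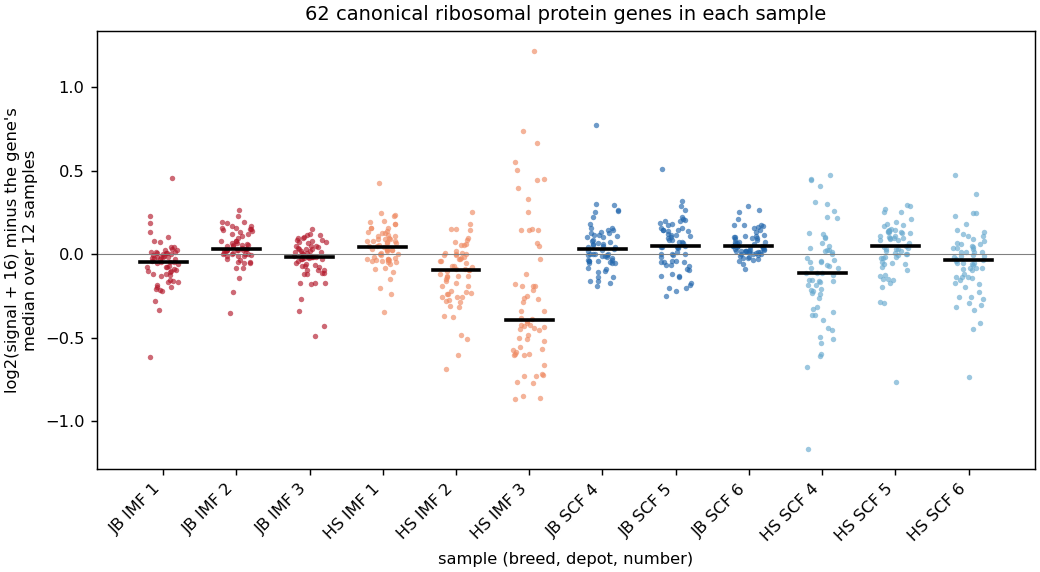
Deviation of each of the 62 canonical genes from its own median over the 12 samples, on the normalized log2 scale, by sample; each point is a gene. The 3 samples of each JB group lie close to 0, whereas HS IMF 3 spreads widely, with 35 genes more than 0.3 below their median and 9 more than 0.3 above it.

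The canonical genes varied less over the samples than most probe sets. The median SD of log2 values over the 12 samples was 0.197 for the 62 canonical genes and 0.467 for all probe sets tested. The canonical genes were also far brighter, with a median signal of 6743 to 11205 by sample, beside array medians of 58.8 to 88.6. Whether the lower spread goes with brightness was not tested. RPL3L had the highest SD of the 68 (2.06), followed by the dim RPS19 (0.466) and RPL37 (0.457). RPS12 (0.0891), RPL9 (0.100) and RPL27A (0.101) had the lowest. RPS12, a small subunit protein, had signals of 8046 to 12998 over the 12 samples before normalization. RPL9 had 10585, 10590 and 10591 in JB IMF and 8868, 7240 and 7548 in HS IMF, a gap that normalization reduced to a difference of 0.15 ± 0.19. The SDs are thus those of normalized values and depend on that step.

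The spread within groups differed between the breeds. The median SD of the canonical genes was 0.0834 in JB IMF and 0.0758 in JB SCF, and 0.283 in HS IMF and 0.177 in HS SCF. For 42 of the 62 the group with the highest SD was HS IMF and for 18 HS SCF, with 2 for JB IMF and 0 for JB SCF. Over all probe sets tested the shares were 57.3%, 25.6%, 9.87% and 7.28%, and the median SDs 0.523 in HS IMF, 0.347 in HS SCF, 0.233 in JB IMF and 0.222 in JB SCF, so the order of the groups was that of the whole array.

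After quantile normalization HS IMF 3 was the lowest of the 12 samples for 36 of the 62 canonical genes and the highest for 12. More than 0.3 below the gene's median were 35 genes, among them RPS20 (-0.87), RPL3 (-0.86), RPL5 (-0.85), RPL28 (-0.77) and RPL13 (-0.77). More than 0.3 above it were 9: RPS19 (1.21), RPL36A (0.74), RPL19 (0.66), RPL14 (0.55), RPL7A (0.51), RPS13 (0.45), RPLP0 (0.44), RPL27 (0.40) and RPL10A (0.33). Of all probe sets tested, 47.4% were below and 28.6% above by that amount in this sample. Both directions hold genes of each subunit. The sample pattern depended on the scaling. After quantile normalization the median deviation of the 62 genes from their means was -0.38 in HS IMF 3, -0.08 in HS IMF 2 and -0.10 in HS SCF 4. With arrays centred on their medians the values were -0.08, -0.34 and -0.29, and in the deposited values -0.47, -0.42 and -0.31.

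RPS20 and RPL14, picked after their values were seen, show both directions in the deposited units. RPS20, a small subunit protein of the head, had 8661, 8900 and 9616 in JB IMF, 8854 and 6467 in HS IMF 1 and 2, and 4137 in HS IMF 3. RPL14, a large subunit protein, had 8512, 7810 and 8826 in JB IMF, 7536 and 5848 in HS IMF 1 and 2, and 11044 in HS IMF 3. One gene was thus lowest and the other highest in the same library. RPS19, the furthest above its median after normalization, stood out less in deposited units, at 239 in HS IMF 3 and 227 in JB SCF 5. In HS SCF 4, 15 of the 62 genes (24.2%) were below and 5 (8.06%) above, beside 30.3% and 25.9% of all probe sets. RPL7A (-1.17), RPL14 (-0.50) and RPL19 (-0.33), which were above their medians in HS IMF 3, were below them in HS SCF 4. Without HS IMF 3 and HS SCF 4 the median breed difference of the 68 genes was 0.05 in IMF and 0.06 in SCF, the count past the threshold was again 0 in both depots, and RPL3L differed between depots by 3.38 (limma adjusted p 0.00475).

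**Figure D4:**
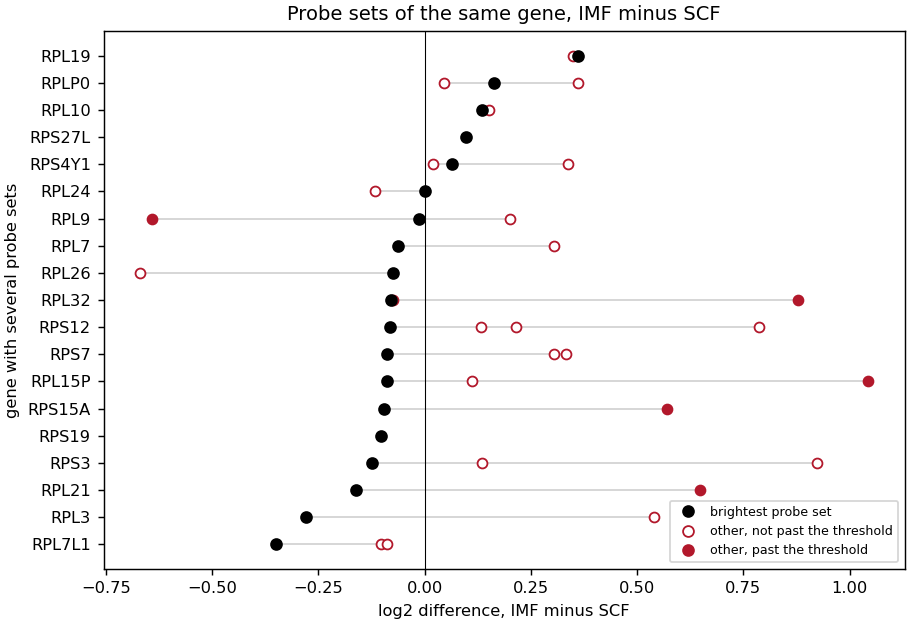
Depot difference (IMF minus SCF, log2 scale) of the 19 genes with several probe sets. Black points are the brightest probe set of a gene, used for all counts. Filled red points are other probe sets past the threshold, and open points are other probe sets not past it. The other probe sets of RPL15P, RPL32, RPL21 and RPS15A that passed the threshold lie above their brightest ones, and that of RPL9 lies below.

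Probe sets of the same gene did not always give the same answer. Of the 68 genes, 19 had more than 1 probe set, with 29 besides the brightest, of which 27 were tested. Between depots 5 of the 27 passed the threshold, beside 11.0% of all probe sets tested, while none of the brightest probe sets of those genes did. Higher in IMF were those of RPL15P (1.04, limma adjusted p 0.0170), RPL32 (0.88, adjusted p 0.0116), RPL21 (0.65, adjusted p 0.0223) and RPS15A (0.57, adjusted p 0.0439), and that of RPL9 was lower (-0.64, adjusted p 0.0365). The brightest probe sets gave -0.09, -0.08, -0.16, -0.10 and -0.01 for the same 5 genes.

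These probe sets were dim beside the brightest. That of RPL32 had signals of 226 to 863 over the 12 samples, that of RPL21 174 to 629 and that of RPS15A 97.1 to 262, while the brightest had medians of 6517, 10405 and 10625. In all, 16 of the 27 had the opposite sign to the brightest in the depot comparison, 11 in the breed comparison in IMF and 16 in that in SCF. Between breeds 0 of the 27 passed the threshold in either depot. Which transcripts each probe set detects was not analysed here.

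**Figure D5:**
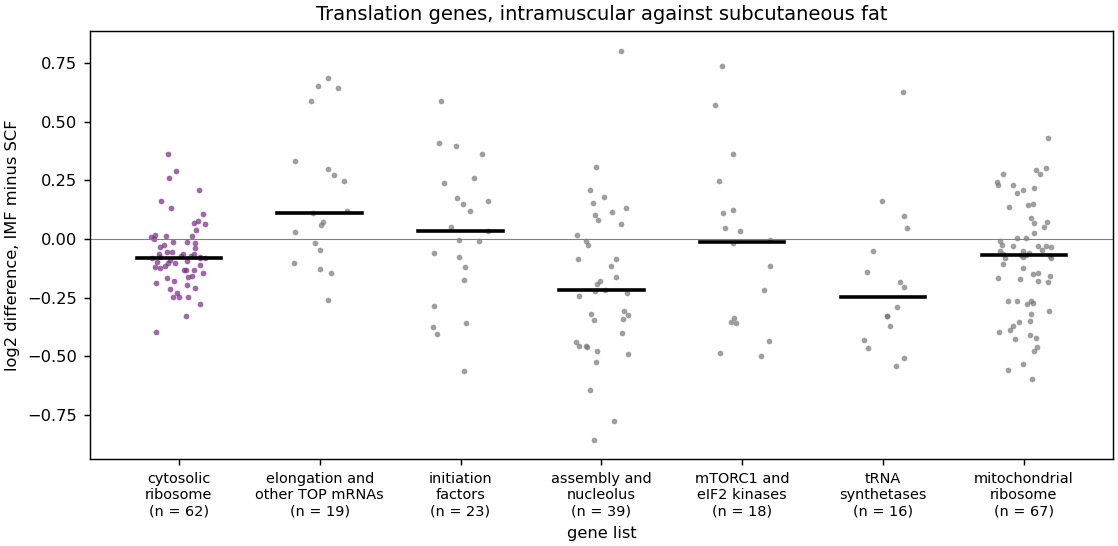
Depot differences (IMF minus SCF over both breeds, log2 scale) of the 62 canonical ribosomal protein genes and of other translation gene lists. Each point is a gene, and bars mark medians. The depot medians lie between -0.25 (aminoacyl-tRNA synthetases) and 0.11 (elongation factors and other genes with TOP messenger RNAs).

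The other genes of translation were taken from lists that, like the genes above, were drawn up with earlier results of these data known. Of the list of 41 genes of ribosome assembly and the nucleolus, 39 were tested, and 1 was higher in IMF: POLR1D, a subunit shared by RNA polymerases I and III, which differed by 0.80 ± 0.19 (limma adjusted p 0.0186). The median of that list was -0.22 between depots, 0.11 between breeds in IMF and 0.25 in SCF. Of the 19 elongation factors and other genes with TOP messenger RNAs, 0 passed in the depot comparison, with a median of 0.11. Of 23 initiation factors 0 passed, with a median of 0.04. Of 18 tested genes of translation control by mTORC1 and eIF2 kinases 0 passed, with a median of -0.01.

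FAU, which is made as a fusion with a small subunit protein, differed by 0.00156 ± 0.16 between depots, and RACK1, a scaffold on the small subunit, by -0.04 ± 0.15. EEF1A1, which brings aminoacyl-tRNA to the ribosome, differed by -0.14 ± 0.14, and EEF2, the translocation factor, by -0.04 ± 0.20. Between breeds, 0 genes of any of these lists passed the threshold in either depot. Differences of the array as a whole were 0.10 in IMF and 0.00286 in SCF at the median.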

How the data were processed

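Biotin-labelled RNA of 12 samples was hybridized to Affymetrix bovine arrays. The authors deposited linear intensity values, called signals here. GCOS 1.1.1 and Expression Console 1.1 (Affymetrix) are named in the submitters' processing notes, and how probes were summarized and normalized is not given in the sources used.

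Signals were turned into log2(signal + 16) and quantile normalized. Of 24016 probe sets that are not controls (112 controls were left out), 13292 carried 1 gene symbol, 86 several and 10638 none. The dimmest 30% by mean (7205) were dropped, and 16811 were tested. All 68 genes passed this filter, RPL3L through its IMF values, and matched RefSeq (ARS-UCD2.0) by Entrez identifier. Each gene is given through its probe set with the highest mean.

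Means of all 4 groups were fitted in R 4.3.3 with limma 3.58.1, using lmFit and eBayes, which left 8 residual degrees of freedom and gave 4.05 prior ones. p-values were adjusted by Benjamini-Hochberg over all probe sets of a comparison, with a threshold of 0.05. The script was tested on simulated data. The 3 samples a group limit the precision.

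Genes named with values are those past the threshold (otherwise the 3 smallest p in each direction), paralogs beside their standard gene, stalk and reference genes, RPS6, RPSA, RPL5, RPL11, RPS19, and the 3 highest and 3 lowest SDs. Genes that deviate in HS IMF 3 and the other probe sets were chosen after their values were seen. The genes and lists were chosen with earlier results of these data known. Alternatives covered the dim filter, scaling, pseudocount, variance model, array weights, samples in the fit, probe set rule, replicate block and leaving out each sample. The fit without HS IMF 3 and HS SCF 4 was added after seeing the data.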

Additional observations from a re-analysis of the deposited data

How the results depend on the processing

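The breed and interaction counts were 0 of 68 genes under each alternative run. The depot count over both breeds was 1 except with the dimmest 50% left out, where RPL3L was not tested and the count was 0; it was 1 to 1 without each sample in turn. The JB depot count was 0 with 50% left out, 3 with array weights (RPL3L, RPS19 and RPSA) and 0 to 1 without each sample. The HS depot count was 0 with 50% left out, with array weights, with only the compared groups and without HS IMF 3 and HS SCF 4, and 0 to 1 without each sample. RPL3L kept an adjusted p of 1.81e-06 to 0.00475 between depots over its 21 alternatives. The median breed difference of the 68 genes moved to 0.39 in IMF and 0.25 in SCF in the deposited values, and to 0.21 in SCF with arrays centred on the median. The cause of these changes was not tested. With the replicate block, 0 genes passed in either breed comparison or the interaction. The JB and HS samples of the same number had correlations of -0.278 to 0.117 in their deviations from the group means. The depots share no number, so whether IMF and SCF of a breed came from the same animals could not be checked.

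Of 1135 values for single genes under alternatives, 33 changed sign. With the mean of a gene's probe sets these were RPS3 between breeds in IMF (-0.31) and, between depots, RPL3 (0.13), RPS27L (-0.087), RPL7 (0.12), RPL32 (0.24) and RPS12 (0.26). In the deposited values they were RPL37A between breeds in SCF (0.039) and RPS27L (-0.067), RPS9 (-0.052) and RPL27A (-0.039) between depots. Between depots they were also RPL7 (0.020), RPL5 (0.0082), RPS15 (0.11) and RPL32 (0.11) without HS IMF 3 and HS SCF 4, RPS9 (-0.037), RPS15 (0.046), RPL32 (0.0060) and RPL37 (0.044) with array weights, and RPL9 (0.00028) with median centring. Without single samples the depot difference ran from -0.078 to 0.0062 for RPS27, -0.12 to 0.039 for RPL7, -0.17 to 0.032 for RPL5, -0.33 to 0.068 for RPS19, -0.12 to 0.046 for RPS15, -0.17 to 0.018 for RPL32, -0.040 to 0.018 for RPL9 and -0.021 to 0.065 for RPL27A. Dim probe sets such as RPS19 and RPL37 limit what their values show.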

Other observations

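The mitochondrial ribosome has its own proteins, encoded in the nucleus. Of the 67 mitochondrial ribosomal protein genes measured, 0 passed the threshold in limma between depots or between breeds in either depot. In IMF, 14 of the 67 were lower in JB, with a median breed difference of 0.21 beside 0.10 over all probe sets tested. In SCF 26 of 67 were lower in JB, with a median of 0.03. Between depots 46 of 67 were lower in IMF, with a median of -0.07. Of all 16811 probe sets tested, 7087 were lower in JB in IMF, 8340 lower in JB in SCF and 9324 lower in IMF than in SCF. The genes with the smallest p were MRPL10 (-0.60 ± 0.19, limma adjusted p 0.0640) and MRPL16 (-0.46 ± 0.15, adjusted p 0.0767).

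Of the 16 aminoacyl-tRNA synthetases, which load amino acids onto tRNA, 0 passed in any of the 3 comparisons. In IMF 3 of 16 were lower in JB and in SCF 1 of 16, with medians of 0.27 and 0.22. Between depots 12 of 16 were lower in IMF, with a median of -0.25. These 3 counts also stand beside 7087, 8340 and 9324 of all 16811 probe sets tested. EIF4EBP1, the repressor of cap-dependent initiation that mTORC1 inactivates, was named after its values were seen. It differed between JB and HS by -1.16 ± 0.29 in IMF (limma adjusted p 0.485) and by -1.12 ± 0.29 in SCF (adjusted p 0.883), and neither passed the threshold.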
